A study of Mus musculus with 12 samples.

Results

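Ttr, Kl, Folr1, Enpp2, Clic6 and Kcnj13, markers of the choroid plexus epithelium, and Foxj1, Ccdc153, Tmem212 and Rarres2, markers of the ependyma, were read on bead arrays of mouse brain glioma. The 10 genes were chosen as known markers of tissue that lines or hangs in the brain ventricles, and every probe named for them was taken, among 19031 genes with a named probe. A total of 7 of the 10 genes had a named probe, 11 probes in all, and 6 genes (Ttr, Kl, Folr1, Clic6, Foxj1 and Rarres2) were detected on enough arrays to be tested. Tmem212 was below that limit, and Enpp2, Kcnj13 and Ccdc153, which the platform annotation used here ties to no probe, were not analysed here. The reference places Ttr on chromosome 18, Kl on 5, Folr1 on 7, Clic6 on 16, Foxj1 on 11, Rarres2 on 6 and Tmem212 on 3. The 12 arrays came from 12 C57BL/6 animals, 6 with intact Tlx and 6 with Tlx deleted. All came from a line that carries Nestin-CreERT2, a tamoxifen-activated Cre, Tlx flox/flox, in which both alleles can be deleted, and Nestin-Tva, the receptor by which avian retroviruses infect cells, and tamoxifen was given once tumours had formed. Littermates labelled CRE+ form the knockout group, aged 48 to 79 days at collection, and littermates labelled CRE-, which lack the Cre, the intact group, aged 38 to 51 days. Nestin drives Cre in neural stem and progenitor cells, so deletion does not reach every cell of the piece, and the ages of the groups differ along with Tlx. The labels call the tissue brain glioma and do not say from which site in the brain it was cut.

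The choroid plexus is a fold of vessels and stroma under a single layer of epithelium that hangs into the ventricles and secretes cerebrospinal fluid. The ependyma is the layer of ciliated cells on the ventricle wall, and its beating cilia move that fluid. Transcripts such as Ttr are made at very high level by the epithelium of the choroid plexus and at low level by other brain cells, so that in a brain sample they serve as a sign that ventricle tissue is in the piece.

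Depth was alike on the 12 arrays, with medians of 134.5 to 161 intensity units and detection (p below 0.05) of 50.8% to 54.8% of the 45135 probes. Nr2e1, as the targeted gene Tlx is now named, had a mean level of 5.55 ± 0.54 log2 units in knockout and 6.14 ± 0.44 in intact tumours (n = 6 each, SD), which did not pass the test (difference -0.58, SE 0.26, limma adjusted p = 0.405). The sources used here do not place its probe relative to the deleted part. Levels below are log2 intensities after background correction and normalization, and differences are log2 knockout minus intact. Replicate numbers name animals and pair none. In such bulk tissue, fewer cells of a type and less RNA per cell cannot be told apart.

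Ttr encodes transthyretin, the carrier of thyroid hormone in cerebrospinal fluid, and its signal differed from animal to animal more than that of nearly any other gene. Its probe (ILMN_2443330) was detected on all 12 arrays. In intact tumours the deposited intensity of replicates 1 to 6 was 1406, 14575, 5019, 16043, 425 and 17641. In knockout tumours it was 189.8, 18721, 17528, 8257, 20219 and 2928. Each group thus held both very bright and dim arrays, and the groups overlapped over nearly their whole range. On the log2 scale Ttr ran from 6.10 on knockout replicate 1 to 14.33 on intact replicate 6, a normalized range of 299.8-fold. The lowest, median and highest levels were 8.37, 13.05 and 14.33 in intact and 6.10, 13.49 and 14.24 in knockout tumours. The arrays formed no separate clusters: the widest step between neighbours in the order was 2.27 log2 units, between knockout replicate 1 and intact replicate 5, and the 6 brightest arrays, 3 of each group, lay from 13.77 to 14.33. The within-group SD of Ttr was 2.80 log2 units, rank 3 among the 14155 genes tested, where the median gene had 0.352.

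Kl encodes Klotho, a co-receptor for a fibroblast growth factor that is also shed into the fluid. Its probe ILMN_1253148 was detected on 8 of 12 arrays, 4 in each group. The lowest, median and highest levels were 4.52, 6.25 and 7.62 in intact and 4.51, 5.85 and 7.10 in knockout tumours. The 4 arrays without detection were intact replicates 1 and 5 and knockout replicates 1 and 6, which are also the 4 arrays with the lowest Ttr. The second Kl probe (ILMN_2930843) was detected on 1 of 12 arrays, with intensities of 123 to 152, and its r with the first over the 12 arrays was 0.035, so it carries values at background and no test.

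Folr1 encodes folate receptor alpha, through which the choroid plexus passes folate into the fluid. Its probe ILMN_3000679 was detected on 9 of 12 arrays. The lowest, median and highest levels were 4.42, 5.37 and 6.83 in intact and 4.50, 5.57 and 7.14 in knockout tumours. Intact replicate 6 and knockout replicates 3 and 5 were the 3 arrays with the highest values, all with high Ttr. The second Folr1 probe (ILMN_2707541), detected on 6 of 12 arrays, ran parallel to the first with an r of 0.994.

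Clic6 encodes a protein of the chloride intracellular channel family that is abundant in choroid plexus epithelium. Its probe (ILMN_2667635) was detected on all 12 arrays. The lowest, median and highest levels were 7.02, 7.89 and 9.78 in intact and 6.64, 8.69 and 9.38 in knockout tumours. Knockout replicate 1 was again the lowest array and intact replicate 6 the highest, as for Ttr. Within-group SDs of Kl, Clic6 and Folr1 were 1.26, 1.15 and 1.02 log2 units, ranks 151, 219 and 346 of 14155.

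**Figure D1:**
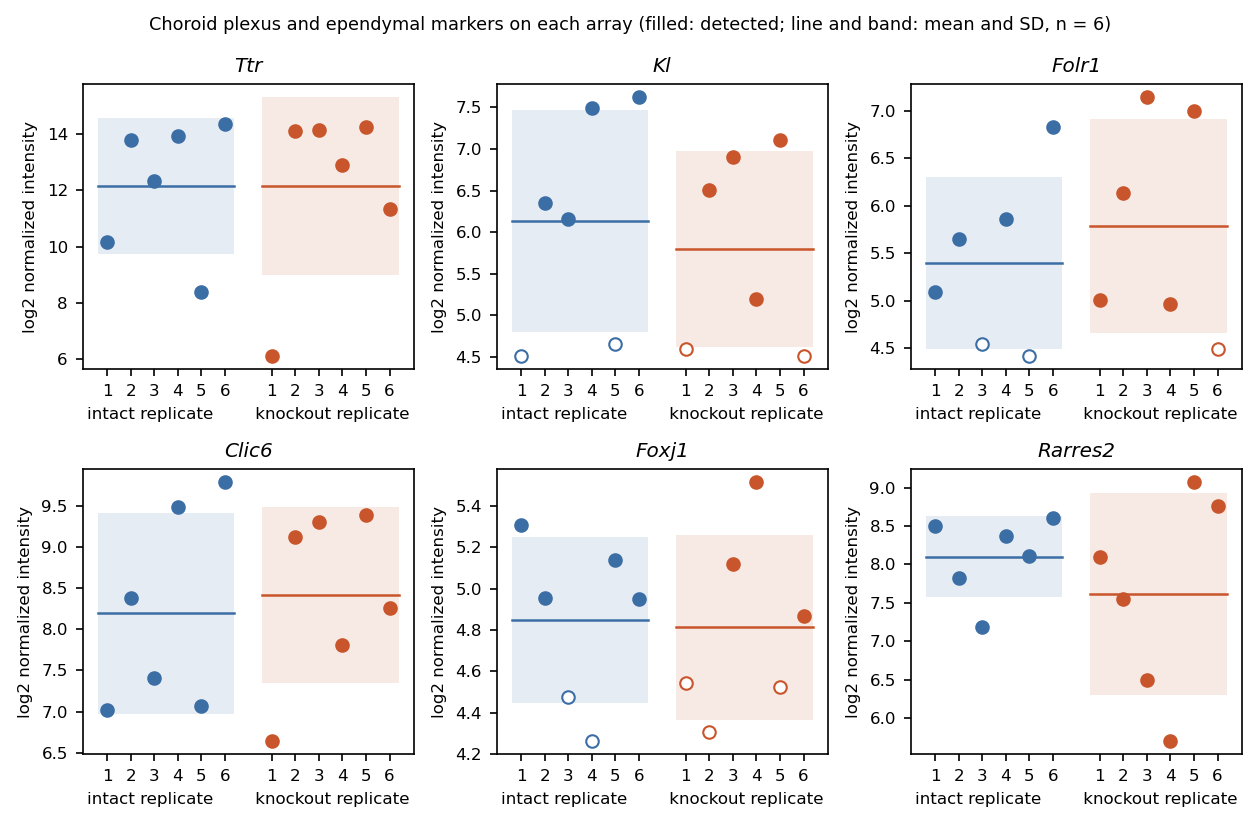
Level of each tested marker on every array (vertical axis, log2 normalized intensity, with a scale of its own in each panel), by replicate of the intact (blue) and knockout (orange) group. Filled points were detected, open points were not, and the line and band are the group mean and SD (n = 6). Intact replicate 5 is among the 4 lowest arrays for each of the 4 choroid plexus genes, and in every panel the groups overlap.

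The 4 choroid plexus genes were high and low on the same arrays. Over the 12 arrays Ttr correlated with Clic6 (Pearson r = 0.86, permutation p = 4e-05, adjusted p = 0.0002, Spearman rho = 0.93, permutation p = 8e-05), with Kl (r = 0.81, p = 0.0003, adjusted p = 0.00075, rho = 0.89, permutation p = 0.00022) and with Folr1 (r = 0.67, p = 0.01539, adjusted p = 0.02565, rho = 0.84, permutation p = 0.00123). The adjustment is over the 5 pairs of Ttr with another marker. Without the 2 arrays farthest from the median of Ttr, knockout replicate 1 and intact replicate 5, r was 0.85 for Clic6, 0.89 for Kl and 0.77 for Folr1. Among the 3 genes other than Ttr, r was 0.88 for Kl with Clic6, 0.81 for Kl with Folr1 and 0.83 for Folr1 with Clic6.

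Within the groups the relation by Pearson r passed the threshold for Kl in both, for Clic6 in the knockout group and for Folr1 in neither, while by Spearman rho Kl and Clic6 passed in both and Folr1 in the intact group. Among intact tumours r with Ttr was 0.92 for Kl (exact permutation adjusted p = 0.0347), 0.85 for Clic6 (exact permutation adjusted p = 0.0625) and 0.78 for Folr1 (exact permutation adjusted p = 0.1065). Among knockout tumours it was 0.76 for Kl (exact permutation adjusted p = 0.0451), 0.92 for Clic6 (exact permutation adjusted p = 0.0451) and 0.62 for Folr1 (exact permutation adjusted p = 0.25). By rank, rho with Ttr was 0.94 for each of Kl, Clic6 and Folr1 among intact tumours (exact permutation adjusted p = 0.0278 each). Among knockout tumours rho was 0.94 for Kl and for Clic6 (exact permutation adjusted p = 0.0417 each) and 0.77 for Folr1 (exact permutation adjusted p = 0.1713). With 6 arrays the smallest unadjusted p the tests of rho can give is 0.00278, and those of r can give a lower value. The Kl and Folr1 probes were not detected on 4 and 3 of the 12 arrays, and their values there have no order.

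No relation with Ttr was detected for the ependymal genes. Its r was -0.13 with Foxj1 (permutation p = 0.6822, rho -0.27, permutation p = 0.405) and -0.15 with Rarres2 (permutation p = 0.6465, rho 0.084, permutation p = 0.801), and both had an adjusted p of 0.6822. The r of Foxj1 with Rarres2 was -0.39 over the 12 arrays.

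**Figure D2:**
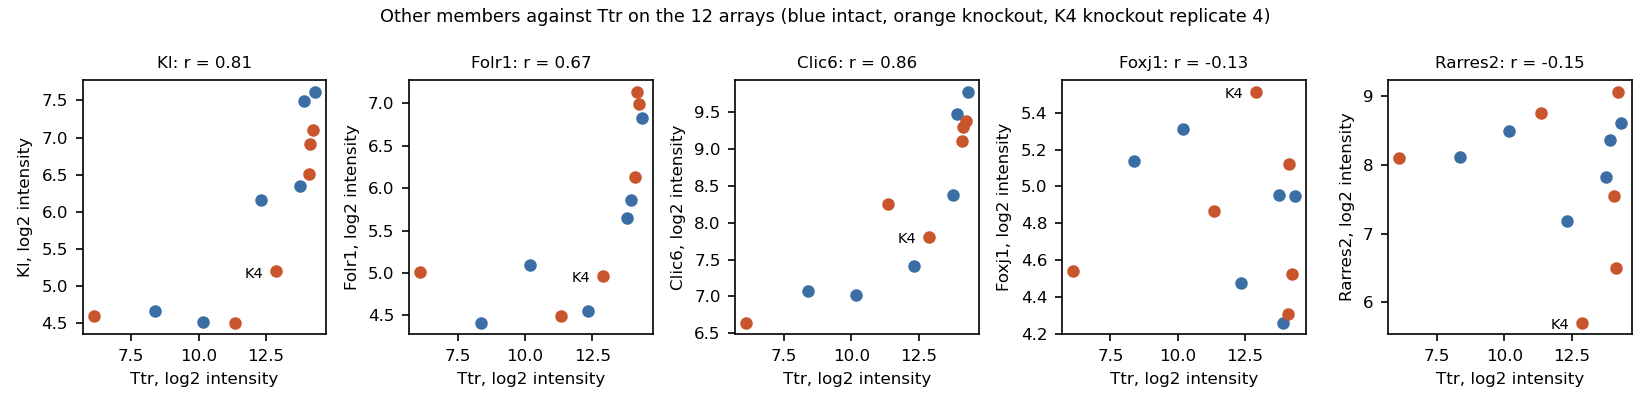
Each other tested marker (vertical axes, log2 intensity) against Ttr (horizontal axes, log2 intensity), with 1 point per array, blue for intact and orange for knockout tumours and K4 for knockout replicate 4. Clic6, Kl and Folr1 climb with Ttr (r = 0.86, 0.81 and 0.67), and no relation was detected for Foxj1 and Rarres2 (r = -0.13 and -0.15).

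Foxj1, the transcription factor that switches on the genes of motile cilia, was near background. Its probe (ILMN_2754453) was detected on 7 of 12 arrays with intensities of 125 to 164. The lowest, median and highest levels were 4.26, 4.95 and 5.31 in intact and 4.31, 4.70 and 5.51 in knockout tumours. Its within-group SD of 0.425 log2 units had rank 4677 of 14155. Tmem212, a membrane protein gene used as an ependymal marker, was detected on 0 of 12 arrays by its probe (ILMN_2630201), with intensities of 100.7 to 143, which gives a bound and no level.

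Rarres2, which encodes the secreted protein chemerin, was the ependymal marker with a clear signal. Its probe of highest mean (ILMN_3003130) was detected on all 12 arrays. The lowest, median and highest levels were 7.19, 8.24 and 8.61 in intact and 5.70, 7.83 and 9.07 in knockout tumours. On this probe knockout replicates 4 and 3 were the 2 lowest of all arrays and knockout replicates 5 and 6 the 2 highest, so that the intact values lay inside the knockout range. A second probe (ILMN_2596655) ran parallel to it (r = 0.91), and the third (ILMN_2588295) less so (r = 0.60). Knockout replicate 4 was the lowest array on these probes too, but the highest was an intact array. On the second it was intact replicate 1 (7.54, highest knockout value 7.44), and on the third intact replicate 6 (8.02, highest knockout value 7.71). Rarres2 is also made outside the ventricles, and the label ependymal rests here on this gene and on Foxj1 alone.

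No marker passed the test between knockout and intact tumours. By limma with Benjamini-Hochberg adjustment over all 14155 genes, 0 of the 6 tested markers passed an adjusted p of 0.05, against 0.0141% of all genes (2 of 14155). By direction, 0 were called higher and 0 lower, against 0.00706% of all genes each way, and of the 9 marker probes tested singly 0 passed, against 0.0107% of 28002 probes. Of the 6 genes, 0 had an unadjusted p below 0.05, against 11.9% of all genes. The groups of 0 of the 6 were free of overlap, against 0.65% of all genes. The mean level of Ttr was 12.13 ± 3.16 in knockout and 12.15 ± 2.40 in intact tumours (n = 6 each, SD), and the difference was -0.015 (SE 1.38, limma adjusted p = 0.998). The 95% interval of that difference ran from -2.98 to 2.95, a fold between 0.127 and 7.73, so that changes of Ttr within that range were not detectable against the spread between animals. Without knockout replicate 1 the difference was 1.19, and without intact replicate 5 it was -0.77. Of the variance of Ttr over the 12 arrays, 0.000864% lay between the groups.

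The other markers had narrower intervals that also held 0. Kl averaged 5.80 ± 1.18 in knockout and 6.13 ± 1.33 in intact tumours and differed by -0.33 (SE 0.63, limma adjusted p = 0.866, interval -1.67 to 1.01). Folr1 averaged 5.79 ± 1.13 and 5.40 ± 0.91 and differed by 0.39 (SE 0.51, limma adjusted p = 0.797, interval -0.71 to 1.49). Clic6 averaged 8.42 ± 1.07 and 8.19 ± 1.22 and differed by 0.23 (SE 0.57, limma adjusted p = 0.902, interval -1.005 to 1.46). The 4 choroid plexus genes were thus split, with 2 above and 2 below 0. Foxj1 averaged 4.81 ± 0.45 in knockout and 4.85 ± 0.40 in intact tumours and differed by -0.036 (SE 0.23, limma adjusted p = 0.969, interval -0.53 to 0.46). Rarres2 averaged 7.61 ± 1.31 and 8.10 ± 0.53 and differed by -0.49 (SE 0.50, limma adjusted p = 0.735, interval -1.56 to 0.59). These are means ± SD with n = 6 in each group. Exact two-sided permutation tests over all divisions of the arrays gave p of 0.996 for Ttr, 0.662 for Kl, 0.517 for Folr1, 0.740 for Clic6, 0.881 for Foxj1 and 0.420 for Rarres2.

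**Figure D3:**
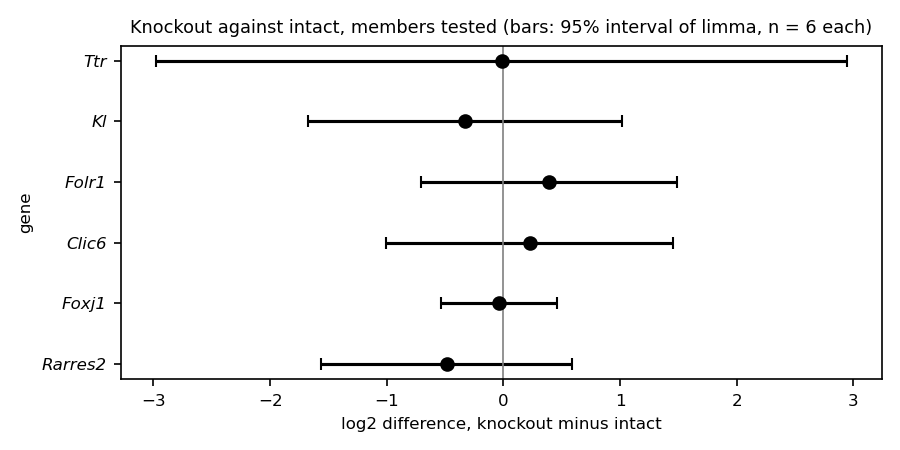
Difference of each tested marker in log2 units, knockout minus intact (horizontal axis, points), with the 95% interval of the limma fit (bars, n = 6 per group). Every interval spans 0, and that of Ttr, from -2.98 to 2.95, is the widest.

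The position of an array in the deposited table moved with group. The first 6 columns held 5 knockout arrays and 1 intact array, and the last 6 held 5 intact arrays and 1 knockout array. Within the first 6 columns Ttr was 13.34 in knockout against 12.33 in the intact tumour, a difference of 1.01, and within the last 6 the 1 knockout tumour, replicate 1 at 6.10, lay 6.01 below the intact mean of 12.11. With these blocks of columns in the fit the difference of Ttr was -2.50 (SE 1.61, limma adjusted p = 0.805). Arrays were also grouped by the leading digits of the number in each label. The block whose numbers shared their leading digits (2 intact, 3 knockout) gave a difference of Ttr of 1.25. Another block (1 intact, 3 knockout) pooled numbers with different leading digits and gave -1.29. Its intact number had other leading digits than its knockout numbers, so group and leading digits cannot be told apart there. The remaining arrays, all intact, had numbers of other forms, and their block gave no difference. These blocks are called the number series below. With age as a covariate the difference was -0.50 (SE 2.22, limma adjusted p = 0.983). The direction of other markers turned too, for Clic6 (-0.17) and Rarres2 (0.073) with the blocks of columns, and for Clic6 (-0.30) and Folr1 (-0.046) with age, and none was called. What these columns and numbers stand for is not given in the labels, and their part in the result was not tested.

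The mean deviation of the 4 choroid plexus genes from their own 12-array means gave 1 level per array. In intact tumours it was -1.30, 0.53, -0.39, 1.18, -1.87 and 1.64 in replicates 1 to 6. In knockout tumours it was -2.41, 0.96, 1.37, -0.29, 1.43 and -0.85. In each group 3 arrays lay above 0 and 3 below. The group means were -0.03 ± 1.39 and 0.03 ± 1.51 (SD, n = 6 each). As descriptions over 12 arrays, the r of this level was 0.215 with the percentage of probes detected, 0.016 with median intensity, 0.115 with age and -0.38 with column position.

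Other genes of the choroid plexus epithelium followed the same arrays. Of 37 such genes listed from general knowledge, 31 were tested, and 19 of these (61.3%) had an r above 0.5 with the level of the 4 markers, against 683 of 14155 genes (4.83%). The mean level of the 31 genes had an r of 0.889 with that of the markers, 0.953 over intact and 0.833 over knockout arrays. The list was chosen with earlier results of these data known and is no independent check of the markers. By contrast, the level of 17 genes of choroid plexus stroma and leptomeninges had an r of 0.042, that of neurons 0.107, of astrocytes 0.038, of myelinating oligodendrocytes -0.18 and of microglia and macrophages -0.455. Values near 0 in 4 of these lists hid opposite signs: for stroma, neurons, astrocytes and myelin r was 0.544 to 0.670 over the 6 intact and -0.793 to -0.256 over the 6 knockout arrays, a difference that was not tested.

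Of the 8 genes outside the marker set with the highest r to the choroid plexus level among all genes tested, 6 were on that list. They were Trpm3 (r = 0.94), a cation channel, Wfdc2 (0.94), a secreted protease inhibitor, Ecrg4 (0.90), a secreted peptide precursor, Ace (0.90), the angiotensin-converting enzyme, Cldn2 (0.89), a claudin of leaky tight junctions, and Car12 (0.88), a carbonic anhydrase. The other 2 were En1 (0.89), a homeobox factor of midbrain and hindbrain patterning, and Rdh14 (0.89), a retinol dehydrogenase. Trpm3 ranged from 4.27 on intact replicate 5 to 7.23 on intact replicate 4. Wfdc2 ranged from 4.41 on intact replicate 5 to 8.43 on intact replicate 6. En1 ranged from 4.35 on knockout replicate 1 to 9.28 on knockout replicate 3. These low and high arrays are among the low and high arrays of Ttr. The genes were picked by their r with a level that includes Ttr, so this likeness comes with the choice.

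Between the groups, the other choroid plexus genes gave no call either. None of the 31 passed the limma threshold, 1 had an unadjusted p below 0.05, 20 lay above 0 and 11 below, and the median difference was 0.07, against a median of -0.0026 over all genes, of which 7018 lay above 0 and 7137 below. The gene with the smallest p was Slco1a4, an organic anion transporter that brain endothelium also makes, at 6.70 ± 0.50 in knockout and 5.68 ± 0.79 in intact tumours (difference 1.02, SE 0.34, limma adjusted p = 0.272). Its r with the choroid plexus level was -0.23, so it did not follow the other genes of the list. Next were Trpv4, a cation channel that senses osmotic change (0.45), Lbp, a lipopolysaccharide-binding protein (0.82), and Steap1, of the metalloreductase family (0.45), with limma adjusted p of 0.457 to 0.467. Among stroma and leptomeningeal genes 7 lay above 0 and 10 below (median -0.03), led by Slc13a3, a dicarboxylate transporter (-0.98, SE 0.35, limma adjusted p = 0.292), and Gjb2, the gap junction protein connexin 26 (-0.75, limma adjusted p = 0.514), which did not pass.

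**Figure D4:**
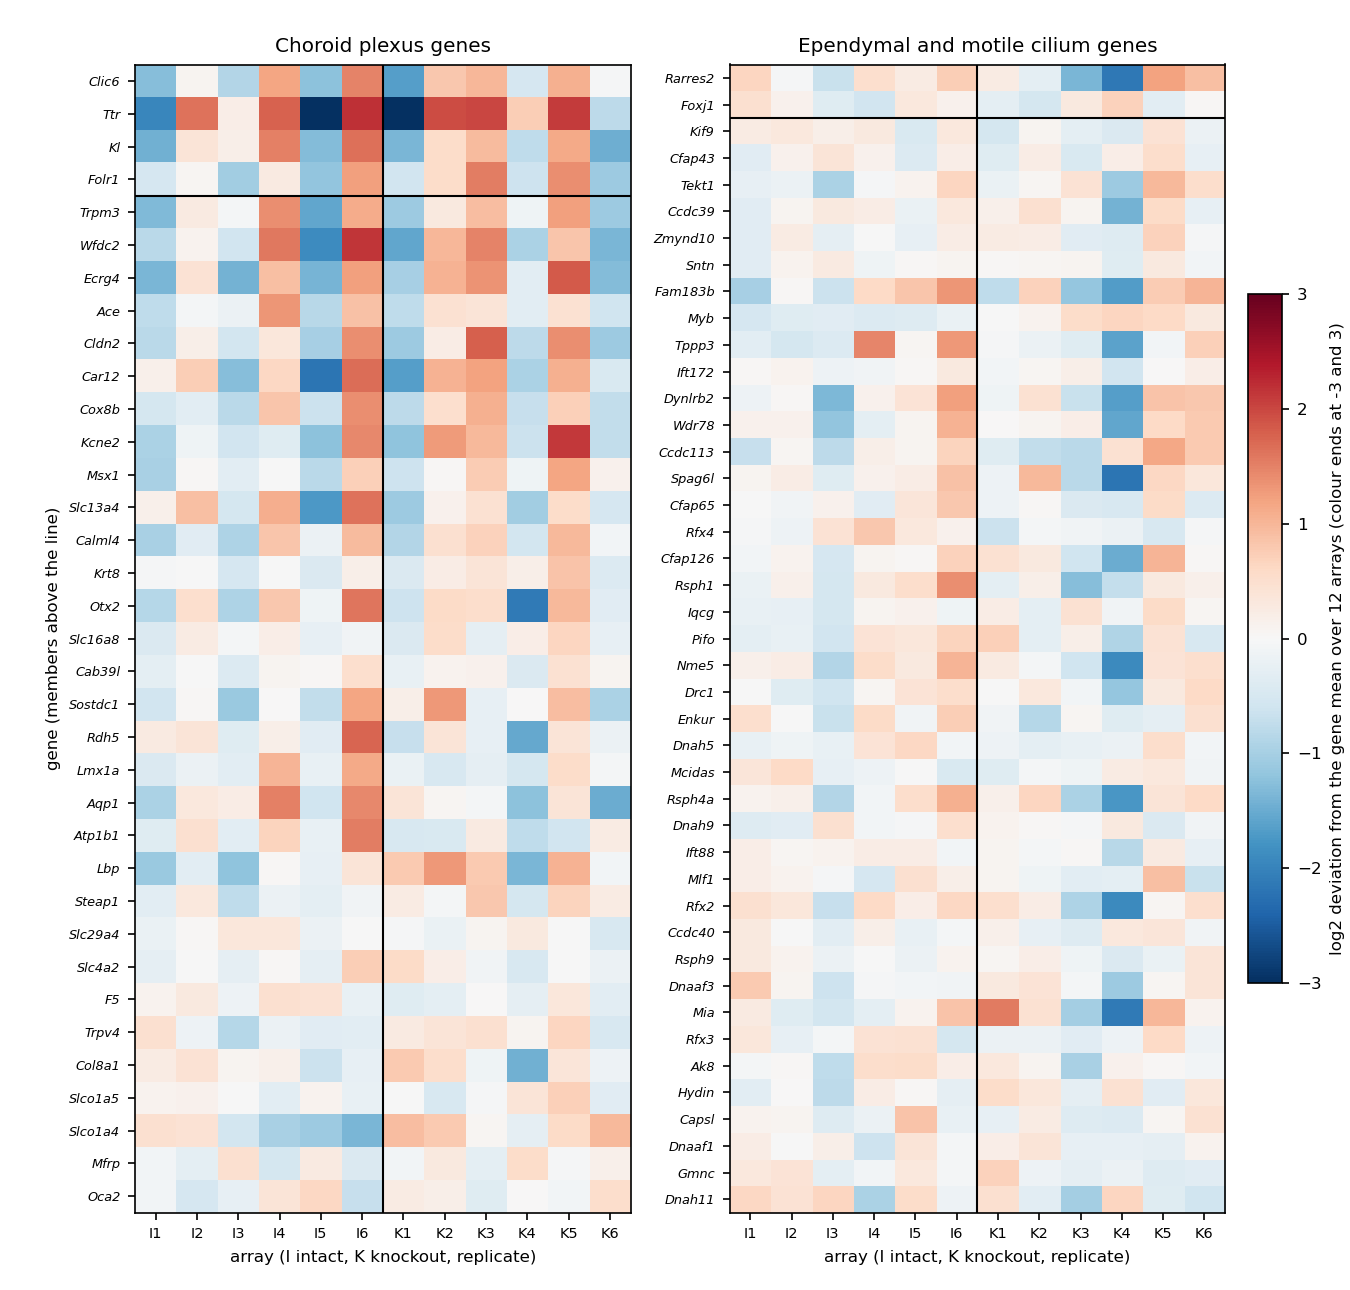
Deviation of each gene from its mean over 12 arrays (colour, log2 units) for choroid plexus genes on the left and ependymal and motile cilium genes on the right, with the markers above the black line and the other listed genes below it in order of their r with the choroid plexus level. Columns are arrays of intact (I) and knockout (K) tumours by replicate. Intact replicates 4 and 6 and knockout replicates 3 and 5 are high in Ttr and in most genes of the upper left, and knockout replicate 4 is the lowest array for 22 of the 41 genes on the lower right.

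**Figure D5:**
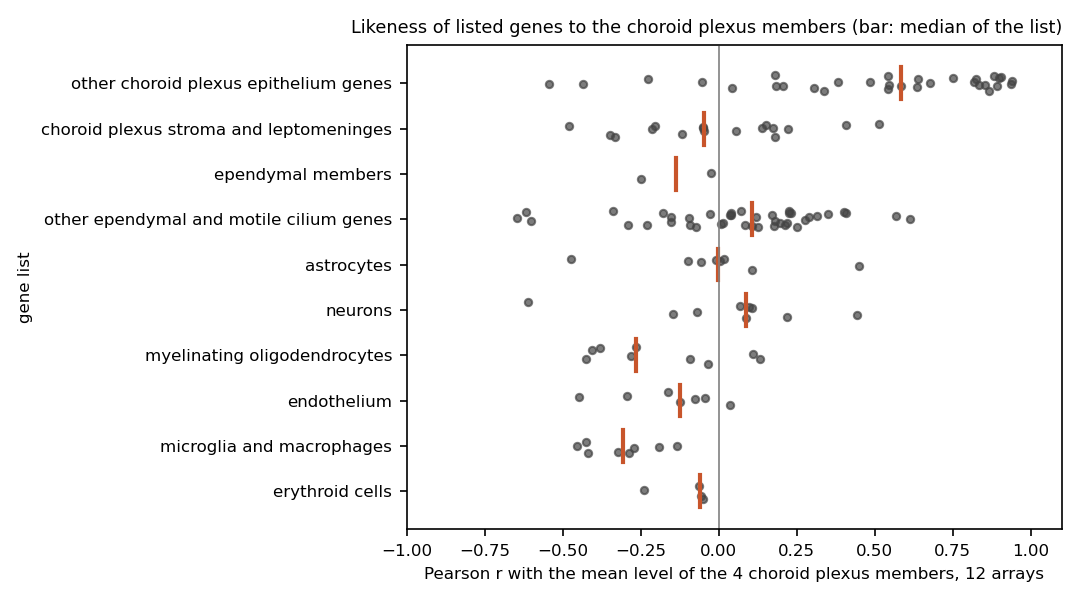
Pearson r of each listed gene with the mean level of the 4 choroid plexus genes over 12 arrays (horizontal axis), 1 point per gene, by gene list (vertical axis, with points spread at random for legibility), and the median of each list as a bar. Of the other choroid plexus genes, 19 of 31 lie above 0.5, whereas the median of the 41 cilium genes is 0.11.

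Genes of motile cilia followed the 4 choroid plexus markers no more often than other genes did. Of 62 listed genes of ependyma and motile cilia 41 were tested, and 2 of these (4.88%) had an r above 0.5 with the choroid plexus level, close to the 4.83% of all genes. Their mean level had an r of 0.127 with it, and of 0.460 with the level of the 31 other choroid plexus genes. Rarres2, which is not on that list, had an r of 0.92 with the cilium level, and 0.85 without knockout replicate 4. Foxj1 had an r of -0.41 with it, and -0.067 without that array. Genes closest to the cilium level, chosen after their values were seen and each counted in the level itself, were Dynlrb2, a dynein light chain (0.96), Nme5, of the nucleoside diphosphate kinase family (0.96), Rsph4a, a radial spoke protein (0.96), and Cfap126, a basal body protein (0.94).

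Knockout replicate 4 was the lowest array for many cilium genes and for Rarres2. Its cilium level was -0.65, the lowest of the 12 arrays, and 22 of the 41 cilium genes (53.7%) had their lowest value there, against 14.8% of all genes tested. Its Rarres2 was 5.70, also the lowest, whereas its Foxj1, at 5.51, was the highest of the 12. Its Ttr was 12.89, in the middle of the order, with a deviation of 0.74 from its mean. Those of Kl, Folr1 and Clic6 there were -0.77, -0.63 and -0.50. The level of the 31 other choroid plexus genes there was -0.51. Of these genes 8 (25.8%) had their lowest value on that array, against 14.8% of all genes tested. Otx2, a homeobox factor that the choroid plexus needs, was not detected there and read 4.30, 2.13 below its mean and the lowest of all arrays. Of other cells, the level there was -1.66 for 8 astrocyte genes, -1.54 for 9 neuron genes, -0.99 for 9 myelin genes and -0.96 for 17 stroma and leptomeningeal genes, each the lowest of the 12, -0.88 for 8 microglial and macrophage genes, 0.07 for 7 endothelial genes and 2.14 for 4 erythroid genes, the highest of the 12. Without it, the r of Ttr was 0.85 with Kl, 0.89 with Clic6 and 0.70 with Folr1, and the r of the 31 other choroid plexus genes with the marker level was 0.920. The difference of Rarres2 was then -0.10 in place of -0.49. Across all arrays the cilium level had an r of 0.793 with the astrocyte level, whose part in the cilium and Rarres2 values was not tested.

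Between the groups, 9 cilium genes lay above 0 and 32 below, with a median of -0.10, and none of the 41 passed the limma threshold. Over all genes tested, 7018 lay above 0 and 7137 below. The mean cilium level was -0.059 in knockout and 0.059 in intact tumours, but the medians over arrays were 0.074 and 0.065. Knockout replicate 4 had the lowest level, -0.65, and its part in the count of genes below 0 was not tested. Rfx4, a factor of the RFX family, was the lower gene of smallest p, at 8.19 ± 0.25 in knockout and 8.70 ± 0.35 in intact tumours (difference -0.50, SE 0.18, limma adjusted p = 0.294). Myb, which acts early in multiciliated cells and also in dividing progenitors, was detected on 0 of 6 intact and 4 of 6 knockout arrays. It thus passed the detection filter through the knockout group alone. Its levels were 5.01 ± 0.27 in knockout and 4.28 ± 0.10 in intact tumours (difference 0.73, SE 0.14, limma adjusted p = 0.184), the latter at background. Hydin, a protein of the ciliary central pair (0.37), and Iqcg, of the dynein regulatory complex (0.31), both had a limma adjusted p of 0.508. Among markers of other cells, all 9 neuron genes were below 0 with a median of -1.21, as were all 9 myelin genes (-0.46) and 7 of 8 astrocyte genes (-0.77), with 0 called in each list. Of the genes of endothelium 3 of 7 lay above 0 (median -0.06), of microglia and macrophages 6 of 8 (0.15) and of erythroid cells 1 of 4 (-0.04), again with 0 called.

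The level of Foxj1 and Rarres2 together, the mean of their deviations, ran from -0.51 to 0.56 in intact and from -0.73 to 0.47 in knockout tumours. Its r was 0.91 with Rarres2 and 0.025 with Foxj1, so that it mostly follows Rarres2, and -0.140 with the choroid plexus level. Genes most like it among all genes tested were Vps37d (r = 0.91), of the endosomal sorting machinery, Smurf1 (0.89), a ubiquitin ligase, Aldh2 (0.88), the mitochondrial aldehyde dehydrogenase, Rnf138rt1 (0.86), Slc13a3 (0.86), Cd27 (0.86), a receptor of lymphocytes, Rnase1 (0.85), a secreted ribonuclease, and Spata2 (0.85). None of the 8 is on the cilium list.

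Promoter sequence was at hand in RefSeq (GRCm38.p6) for Kl, Kcnj13, Tmem212 and Ccdc153, as the 250 bases before each start. The window of Kl is shown because Kl is the marker whose relation with Ttr passed in both groups by Pearson r as well as by rank. It was searched on both strands for TAATCC, the core of the motif of OTX factors such as Otx2, and for GTTGCC, a part of the motif of RFX factors, which with Foxj1 act on cilium genes, and neither was found in this window. The letters of the OTX motif cannot overlap those of the RFX motif.
Kl, chr5:150952357-150952606, plus strand: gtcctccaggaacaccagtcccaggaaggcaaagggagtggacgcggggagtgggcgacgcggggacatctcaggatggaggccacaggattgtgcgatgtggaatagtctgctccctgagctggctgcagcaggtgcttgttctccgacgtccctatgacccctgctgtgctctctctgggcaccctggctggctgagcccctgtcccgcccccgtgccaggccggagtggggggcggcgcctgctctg
In the 34 other choroid plexus genes with a window, 3 (8.82%) held TAATCC or its complement, against 7.21% of the 27025 genes in the table.

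RFX letters were more frequent before the starts of cilium genes than over all genes. Of the cilium genes 20 of 48 (41.7%) held GTTGCC or its complement GGCAAC, against 3195 of 27025 genes (11.8%). The lists of other cells, with only 4 to 8 genes each, varied widely. Their shares ran from 0% for endothelium and for microglia and macrophages to 33.3% for neurons (2 of 6) and 50% for erythroid cells (2 of 4). A stretch of 40 bases is shown for the marker Ccdc153, which was not analysed here on the arrays, and for the 4 listed genes with such letters that were closest to the cilium level, chosen after their values were seen. The r with that level was 0.96 for Dynlrb2, 0.89 for Rfx2, itself an RFX factor, 0.88 for Drc1, of the dynein regulatory complex, and 0.86 for Fam183b, a cilium-associated gene. Capitals mark the letters searched for, and each stretch reads 5′ to 3′ on the strand of its gene.
Ccdc153, chr9:44240508-44240547, plus strand: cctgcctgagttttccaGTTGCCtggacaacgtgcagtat
Dynlrb2, chr8:116504947-116504986, plus strand: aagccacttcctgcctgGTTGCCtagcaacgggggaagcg
Rfx2, chr17:56831102-56831141, minus strand: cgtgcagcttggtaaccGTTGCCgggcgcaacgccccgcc
Drc1, chr5:30281353-30281392, plus strand: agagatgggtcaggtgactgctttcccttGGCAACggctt
Fam183b, chr11:58802005-58802044, minus strand: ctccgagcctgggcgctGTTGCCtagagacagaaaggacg
These letters lie 152, 51, 116, 11 and 67 bases before the respective starts. Fam183b held a second match, 16 bases before its start, which is not shown. A match is a description of the letters and not of binding.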

How the data were processed

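Total RNA of 12 gliomas was hybridised as biotinylated cRNA to Illumina bead arrays, per the labels' protocols. The authors deposited 2 tables. Per the file headers, the first gives 45135 probes with their non-normalized linear intensity and detection p-value by array. The sources used here do not say how the authors computed the detection p-values. The second, a value table of 45134 probes, holds linear intensities that the authors normalized in a way not stated here, and it served as an alternative. Each of its arrays ranked probes as the unnormalized array did (rank correlation 0.99995 or more). Its column medians were 145 to 150.2, it is not centred, and a single-colour intensity has no direction. The number of columns of other samples was 0.

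Deposited intensities were corrected and normalized to log2 with neqc (limma 3.58.1, R 4.3.3, offset 16, background inferred from the deposited detection p-values). The offset draws differences of dim probes towards 0. Probes with a detection p below 0.05 on 3 or more arrays were kept (28002), and the probe of highest mean stood for its gene (14155 genes). Symbols came from the platform annotation, updated through Entrez identifiers: 34772 probes had 1 gene, 18 several and 10345 none. Groups were compared by limma (lmFit, eBayes, two-sided, Benjamini-Hochberg over all genes tested, threshold 0.05). Single markers were also tested by exact permutation. Correlations with Ttr used 100000 permutations, and all 720 orders within a group. Likeness between other genes and levels is descriptive. Each array is a separate animal, and the number of arrays limits the precision. The limma comparison was tested on simulated gene levels, and the other steps were not.

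Markers and gene lists were chosen with earlier results of these data known. Named genes are every marker and its probes, up to 4 genes of each list by smallest p, the 8 genes most like each marker level, and Nr2e1; not all genes so taken are described. Alternatives varied background correction, normalization, filter, probe choice, array weights, age, column block, number series and the arrays included. Promoter windows are RefSeq's (GRCm38.p6), 250 bases before each start.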

Additional observations from a re-analysis of the deposited data

Results flagged for a closer look

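Of 26 groups of 6 arrays checked, 1 held an outlying array by Dixon's test. In the knockout group, Ttr on replicate 1 was 6.10 log2 units, and the nearest other array was at 11.35, a gap of 0.645 of the group's whole range, above the critical value for 6 samples. Chance alone flags about 1 in 20 such groups. The array was also the lowest of all 12 for Clic6 (6.64), and its percentage of probes detected, 51.7%, lay inside the range of the other arrays.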

How the results depend on the processing

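No marker was called in either direction in any of the 23 alternatives run. The number of genes called was 2, and 3 with no filter on dim probes. It was 1 with no background correction, median scaling, the authors' value table, the mean of a gene's probes, array weights, age, column block or number series. It ran from 1 to 104 when each array was left out in turn (104 without intact replicate 1, and 5 without intact replicate 2 or knockout replicate 1). The difference of Ttr, -0.015, turned to 0.14 with no background correction, 0.040 with cyclic loess, 0.038 with median scaling, 0.15 in the value table, 0.24 with array weights and 0.28 with the number series, and ran from -0.77 to 1.19 with each array left out. The difference of Clic6 turned to -0.30 with age and -0.17 with the column block, and ran from -0.0084 to 0.58 with each array left out. Folr1 turned to -0.046 with age. Foxj1 turned to 0.0049 with the column block, and ran from -0.18 to 0.065 with each array left out. Kl turned to 0.15 with the number series. Rarres2 turned to 0.073 with the column block and 0.022 with the number series. The median of Foxj1 and Rarres2 moved from -0.26 to -0.72 with age. Over intact arrays alone, Pearson r with Ttr was 0.78 for Folr1 and 0.85 for Clic6, past no threshold (both passed by Spearman rho), and 0.022 for Rarres2, of opposite sign. Over knockout arrays alone it was 0.62 for Folr1, past no threshold by either measure, and 0.16 for Foxj1, of opposite sign, and both subsets hold only 6 arrays. Values without knockout replicate 4 were chosen after seeing the data. The cause of the other changes was not tested. No paired analysis was possible because the labels give no replicate numbers shared between the groups. Kl, Folr1 and Foxj1 lay near background, which limits their differences.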
